A study of Mus musculus with 6 samples.

Results

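The 35 genes described here encode nuclear receptors of the mouse, and were taken as a named list: the family without Hnf4a and the Rev-erb receptors Nr1d1 and Nr1d2. All 35 were found among the 48432 genes of the table, and 33 of them passed a filter on low levels (1 TPM or more in any 2 of the 6 samples). The vitamin D receptor Vdr and Hnf4g did not pass it. TPM gives a transcript's abundance per unit of length as a share of all transcripts of a sample, so levels can be compared between receptors.

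The samples were hepatocytes of FVB mice whose polyadenylated RNA was sequenced from stranded libraries. They form 3 groups of 2 samples. DDC fed samples came from adults kept for 4 weeks on a diet with DDC (diethoxycarbonyl dihydrocollidine), a compound that injures hepatocytes and bile ducts. E18 samples came from embryos at day 18, each sample a pool of about 8 embryos. Normal fed samples came from adults on chow. All 3 groups are of the same strain, and no group carries a transgene or deletion in the labels. Nothing in the labels tells whether both adult samples of a group are from different mice, so p-values cover the spread between samples alone, which may be technical. Samples are called 0 and 1 within their group, after the columns of the table. Without read counts, the depth of the libraries is unknown.

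Nuclear receptors are transcription factors that most often act when a small fat-soluble molecule binds them: a steroid, thyroid hormone, retinoic acid, a bile acid, an oxysterol, a fatty acid or a foreign chemical. Many bind DNA as pairs with a retinoid X receptor (RXR), at copies of the hexamer AGGTCA, and recruit coactivators or corepressors. In the adult liver they set bile acid synthesis, lipid and sugar use and the enzymes that clear drugs. The 3 NR4A receptors have no classical ligand, and their genes are immediate early genes that respond within a short time to signals such as cyclic AMP.

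Sequences upstream of the NR4A genes are shown first, since Nr4a1 and Nr4a2 rose more than any other of the 33 tested receptors in E18 against normal fed samples. Beside them stands Nr1i3, the receptor that was the highest or next highest of the 35 in every adult sample. Each window is the 250 bases before the start of the gene in RefSeq on GRCm38.p6, read 5′ to 3′ on the strand of the gene. Capitals mark TGACG, the core of the site bound by CREB (the factor that answers cyclic AMP), or its complement CGTCA.
Nr4a1, chr15:101266596-101266845, plus strand: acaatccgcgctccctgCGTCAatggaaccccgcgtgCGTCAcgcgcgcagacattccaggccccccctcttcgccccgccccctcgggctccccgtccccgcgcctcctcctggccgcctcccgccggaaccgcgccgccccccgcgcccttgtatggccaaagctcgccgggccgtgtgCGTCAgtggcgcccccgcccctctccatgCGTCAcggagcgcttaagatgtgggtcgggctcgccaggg
Nr4a2, chr2:57124004-57124253, minus strand: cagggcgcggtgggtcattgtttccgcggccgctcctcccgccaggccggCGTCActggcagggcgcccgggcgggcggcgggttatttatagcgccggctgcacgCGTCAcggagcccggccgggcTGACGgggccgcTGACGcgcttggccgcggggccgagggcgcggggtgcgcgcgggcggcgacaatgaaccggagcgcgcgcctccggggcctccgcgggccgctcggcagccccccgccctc
Nr4a3, chr4:48045055-48045304, plus strand: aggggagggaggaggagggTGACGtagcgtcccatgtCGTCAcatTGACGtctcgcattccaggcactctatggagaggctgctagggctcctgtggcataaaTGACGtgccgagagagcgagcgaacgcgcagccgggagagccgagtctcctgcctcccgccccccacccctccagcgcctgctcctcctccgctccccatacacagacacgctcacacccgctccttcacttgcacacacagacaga
Nr1i3, chr1:171213720-171213969, plus strand: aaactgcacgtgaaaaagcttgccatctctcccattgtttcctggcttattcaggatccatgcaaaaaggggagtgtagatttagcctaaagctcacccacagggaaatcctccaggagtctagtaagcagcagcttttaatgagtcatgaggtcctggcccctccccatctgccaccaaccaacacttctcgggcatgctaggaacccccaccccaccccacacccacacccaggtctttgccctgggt
The windows of Nr4a1, Nr4a2 and Nr4a3 each held TGACG 4 times, both strands counted, and the window of Nr1i3 held it 0 times. Their base composition differed: G and C made up 74.4%, 80.0% and 63.6% of the 3 NR4A windows and 53.2% of the window of Nr1i3. The shares of all windows given next were not matched for base composition. Of all 32851 RefSeq windows of this length, 17.8% held TGACG at least 1 time and 45 windows, or 0.137%, held it 4 times or more. Of 50 windows of the 32 receptors with a RefSeq entry, 10 held TGACG. The full palindrome TGACGTCA, which contains TGACG, was in 0 of these 50 windows and in 1.55% of all windows. AGGTCA was in 9 of the 50 receptor windows and in 14.02% of all windows, on either strand. GTTAAT, part of the HNF1 site, was in 4 of the 50 and in 6.43% of all windows, and the GC box GGGCGG in 24 of the 50 and in 32.7%. A match is a string of letters and not a measured binding site, and the motifs and the 4 windows shown were chosen after the values were seen. The receptors without an entry were Nr3c1, Thra and Hnf4g.

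The hepatocyte label was checked against marker lists. Ttr, which hepatocytes secrete, was at 7055 and 6701 TPM in DDC fed samples, at 3941 and 2487 TPM in E18 samples and at 9535 and 9640.2 TPM in normal fed samples, but Alb is listed at 0 in all 6 samples, and 5 of 17 hepatocyte markers are listed at 0 in both samples of some group. A 0 in this table can therefore be a failed estimate. In DDC fed against normal fed samples Cyp2e1 (-2.89 on the log2(TPM + 1) scale) and Hpd (-1.07) were called lower. Ahsg, listed at 0 in both DDC fed samples, was also called lower, and Serpina1a, listed at 0 in both normal fed samples, was called higher. No other hepatocyte marker tested was called in that comparison. Macrophage markers summed to 1358 and 1675 TPM in DDC fed, 4037 and 5170 TPM in E18, and 192 and 155 TPM in normal fed samples, with 14 of 15 called higher in DDC fed and 14 in E18 than in normal fed samples. Stellate and fibroblast markers summed to 537 and 487 TPM in DDC fed, 761 and 736 TPM in E18, and 37.4 and 16.4 TPM in normal fed samples (14 and 15 of 15 called higher), and endothelial markers to 248 and 258 TPM in DDC fed, 680 and 697 TPM in E18, and 70.7 and 24.3 TPM in normal fed samples (14 and 15 of 15 called higher). Cholangiocyte markers summed to 117 and 135 TPM in DDC fed, 972 and 1286 TPM in E18, and 158 and 38.3 TPM in normal fed samples. Of 10 tested, 4 (Sox9, Spp1, Cd24a and Prom1) were called higher and 1 (Onecut1) lower in DDC fed, and 7 higher and 0 lower in E18 than in normal fed samples (7 had an unadjusted p under 0.05 in each comparison). The defining marker Krt19 was at 0.0909 and 0.227 TPM in DDC fed and 10.9 and 5.66 TPM in E18 samples, and in normal fed samples at 0.0482 TPM in sample 0 and listed at 0 in sample 1. Single genes made up most of some cholangiocyte sums. Cd24a alone was at 754 and 1139 TPM in E18 samples, and at 5.13 and 5.97 TPM in DDC fed samples. Onecut1 alone was at 144 and 26.1 TPM in normal fed samples, and at 10.2 and 10.4 TPM in DDC fed samples. Lymphocyte markers summed to 1.78 and 1.46 TPM in DDC fed, 85.5 and 108 TPM in E18, and 3.52 and 1.009 TPM in normal fed samples. Neutrophil markers reached 56815 and 67705 TPM and erythroid markers 12898 and 24188 TPM in E18 samples; in the adult samples neutrophil markers summed to between 0.555 and 4.93 TPM and erythroid markers to between 28.1 and 39.9 TPM. Genes typical of cell isolation stress, such as Fos and Jun, summed to 2528 and 4018 TPM in DDC fed, 5598 and 4239 TPM in E18, and 1127 and 583 TPM in normal fed samples. The part of these differences in the receptor values was not tested, and in bulk samples fewer cells of a type and less RNA per cell cannot be told apart.

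Differences are given as log2(TPM + 1) ± SE, which understates the change of low genes, with limma's p adjusted over all 14307 genes tested and a threshold of 0.05. The median gene was itself shifted, by 0.45 in DDC fed against normal fed, 1.06 in E18 against normal fed and -0.55 in DDC fed against E18. Each comparison was therefore also made after median-ratio scaling, which puts these medians at 0, 0.09 and -0.08, and its value is given for each receptor whose call against normal fed samples it changed. Directions of receptors called under neither scaling also turned, for 10 receptors in DDC fed against normal fed samples (Nr1i2, Nr2c1, Nr2f2, Nr2f6, Nr3c1, Nr3c2, Ppara, Rxra, Rxrb and Rora), 3 in E18 against normal fed samples (Nr2c1, Nr2f2 and Ppara) and 4 in DDC fed against E18 samples (Nr2c1, Nr2f2, Ppara and Rarb). Both comparisons with normal fed adults use the same pair of normal fed samples. In normal fed sample 1, 28 of the 33 receptors were lower than in normal fed sample 0, with a median difference of -0.55 against -0.22 for all genes.

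**Figure D1:**
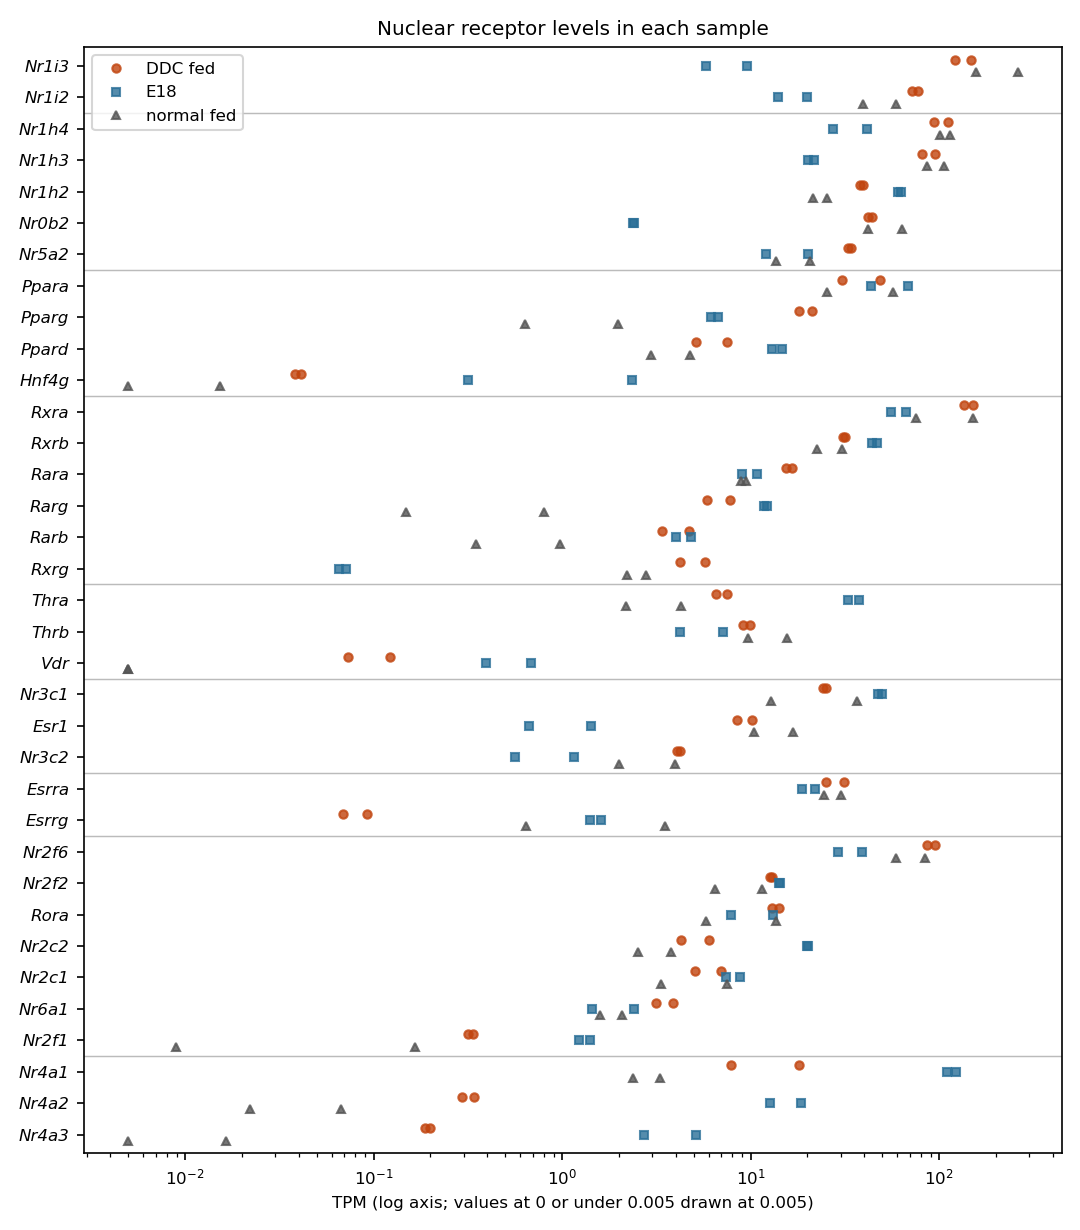
Level of each of the 35 receptors in each of the 6 samples, in TPM on a log axis, with receptors grouped by ligand class and 1 point per sample (circles DDC fed, squares E18, triangles normal fed). E18 points stand far to the left of adult points for Nr1i3, Nr0b2 and Rxrg and far to the right for the NR4A receptors.

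Summed over the 35 genes, receptor transcripts came to 992 and 1038 TPM in DDC fed samples, 763 and 657 TPM in E18 samples and 1021 and 865 TPM in normal fed samples. The sum was lower in both E18 samples than in every adult sample, while DDC fed and normal fed samples overlapped. Rxra led in DDC fed sample 0, Nr1i3 in DDC fed sample 1, Nr4a1 in both E18 samples and Nr1i3 in both normal fed samples. The 5 highest receptors held 53.7% and 56.4% of the sum in DDC fed, 48.2% and 49.2% in E18, and 58.0% and 69.4% in normal fed samples.

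DDC fed samples differed from normal fed samples in 11 of the 33 tested receptors. Pparg, Rarg and Rarb rose and were called in each setting in which they could be fitted, while 10 of 33 receptors were called higher and 1 was called lower with the settings used here. Over all genes tested, 34.2% were called higher and 3.07% lower. The other receptors called higher were Nr4a1, Rxrg, Nr1h2, Rara, Thra, Nr5a2 and Nr6a1, and Esrrg was called lower. The median difference was 0.41 over the 33 receptors and 0.45 over all genes. With median-ratio scaling 3 receptors were higher and 5 lower, and the share of calls that were higher over all genes was 63.8% in place of 91.8%. The count of receptors called higher was 21 without normal fed sample 0, 5 without DDC fed sample 0, 4 without DDC fed sample 1 and 6 without either E18 sample. The count called lower was 2 without normal fed sample 0, 3 without normal fed sample 1, and 0 without either DDC fed or either E18 sample. Of the 33, 20 receptors had both DDC fed values above both normal fed values and 3 had both below, against 62.4% and 8.99% of all genes.

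E18 samples differed from normal fed samples in most receptors, in both directions. The largest falls were those of Nr1i3, Nr0b2, Esr1 and Nr1h3, and the NR4A receptors, Rarg and Thra rose. In all, 13 of 33 were called higher and 10 lower, where 63.0% of all genes tested were called higher and 12.7% lower. The median difference was 0.17 over the receptors and 1.06 over all genes. With median-ratio scaling 10 receptors were higher and 17 lower, and the share of calls that were higher over all genes was 54.4% in place of 83.3%. Without E18 sample 0 or without E18 sample 1 the count called higher was 8. Among the 13, Nr2f1, Nr4a2 and Nr4a3 were not tested without either E18 sample, since they reached 1 TPM in E18 samples alone. The smaller count there is therefore only in part a loss of calls. Of the 13 receptors higher, 10 were called in every setting in which they could be fitted, and so were 7 of the 10 lower. Nr2f1, Nr4a2 and Nr4a3 are among the 10 higher, and their calls were never tried with an E18 sample left out. E18 values stood wholly above normal fed values for 14 receptors and wholly below for 12, against 69.7% and 16.7% of all genes.

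DDC fed samples set against E18 samples showed 14 receptors called higher and 10 called lower, where 17.7% of all genes were called higher and 47.0% lower. The median difference was 0.37 over the receptors and -0.55 over all genes. With median-ratio scaling the counts were 16 and 6, and the share of calls that were higher over all genes was 45.0% in place of 27.4%. That scaling ended the calls of Nr1h2 (-0.14), Ppard (-0.54), Rarg (-0.26) and Esrrg (-0.89) and added those of Thrb (1.12) and Esrra (0.95). The count called lower was 6 without DDC fed sample 0, and 3 without either E18 sample. Nr2f1, Nr4a2 and Nr4a3, among the 10 called lower, failed the filter without either E18 sample and were not tested there. DDC fed values stood wholly above E18 values for 16 receptors and wholly below for 14, against 28.2% and 61.8% of all genes.

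**Figure D2:**
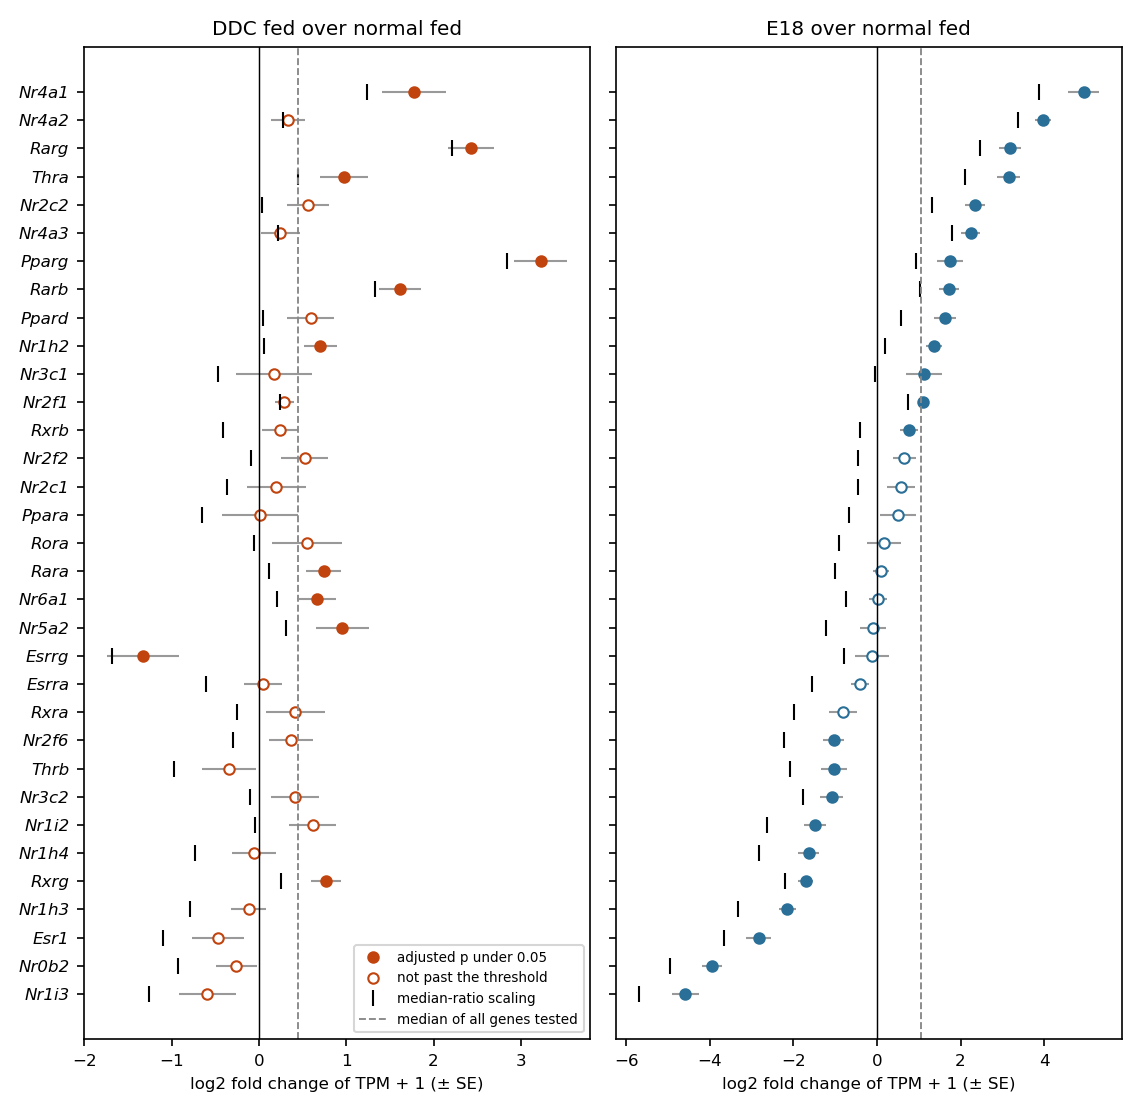
Difference of each of the 33 tested receptors from normal fed samples on the log2(TPM + 1) scale (points, with SE as bars), for DDC fed samples on the left and E18 samples on the right, n = 2 samples a group. Filled points passed the threshold, short black lines give the value after median-ratio scaling, and the dashed line marks the median of all genes tested, at 0.45 and 1.06.

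The xenobiotic receptors are Nr1i3 (CAR) and Nr1i2 (PXR), which switch on cytochrome P450 enzymes and transporters when foreign chemicals or bile acids reach the hepatocyte. Nr1i3 lies on chromosome 1 (171213970 to 171220701, plus strand, GRCm38). It was at 121 and 148 TPM in DDC fed samples, 9.54 and 5.78 TPM in E18 samples and 157 and 260.4 TPM in normal fed samples. It was lower in both E18 samples than in every adult sample, and lower in both DDC fed samples than in both normal fed samples. The fall in E18 was -4.59 ± 0.33 against normal fed samples (limma adjusted p = 2.17e-05) and held in all 16 settings. In DDC fed samples the difference was -0.59 ± 0.33 (limma adjusted p = 0.198), and it passed the threshold only without normal fed sample 0, of the settings tried. Exons of Tomm40l on the opposite strand cover 74.9% of the exon bases of Nr1i3, and Tomm40l reached at most 19.8 TPM. The libraries keep strand, but whether the quantification used it is not given in the sources used here.

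Nr1i2 was at 76.9 and 71.8 TPM in DDC fed, 19.8 and 13.99 TPM in E18 and 58.9 and 39.4 TPM in normal fed samples. The groups did not overlap, with DDC fed samples highest and E18 samples lowest. E18 samples fell by 1.48 ± 0.27 against normal fed samples (limma adjusted p = 0.00214) in all 16 settings, and the difference of 0.62 ± 0.27 in DDC fed samples did not pass (limma adjusted p = 0.116) and was -0.046 with median-ratio scaling. DDC fed samples were higher than E18 samples by 2.09 ± 0.27 for Nr1i2 and 3.99 ± 0.33 for Nr1i3 (limma adjusted p = 0.000559 and 6.66e-05). Nr1i3 was 1.57 and 2.06 times Nr1i2 in DDC fed samples, 0.481 and 0.413 times in E18 samples and 2.66 and 6.62 times in normal fed samples.

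Of 28 listed genes that xenobiotic receptors are known to control 27 were tested, and 15 rose and 3 fell in DDC fed against normal fed samples, where 34.2% of all genes were called higher and 3.07% lower. The median difference was 1.93 over the list and 0.45 over all genes. Gsta1, a glutathione transferase, was at 1413 and 1478 TPM in DDC fed and 11.2 and 9.60 TPM in normal fed samples (6.99 ± 0.23, limma adjusted p = 8.94e-06). Cyp2c55, a cytochrome P450, was at 30.9 and 31.6 TPM in DDC fed and 1.33 and 1.16 TPM in normal fed samples (3.84 ± 0.16, limma adjusted p = 2.15e-05). Cyp2b10, the enzyme most used as a readout of CAR and named here after its values were seen, was at 524 and 439.6 TPM in DDC fed, 0.170 and 0.258 TPM in E18 and 33.6 and 15.8 TPM in normal fed samples. Both DDC fed values of Cyp2b10 were far above both normal fed values, while both DDC fed values of Nr1i3 were below its normal fed values. Of the 3 called lower, Cyp3a11 and Gstm1 are listed at 0 in both DDC fed samples, and Ces2a, a carboxylesterase, fell by 1.57. Without normal fed sample 1, 5 were called lower. These families have near-identical copies, and how reads were shared among them is not given.

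In E18 against normal fed samples 4 of the 27 rose and 17 fell, with a median of -1.47 over the list. Over all genes 63.0% were called higher and 12.7% lower, with a median of 1.06. Cyp2c29 was at 0.0792 and 0.0747 TPM in E18 and 2114 and 1232 TPM in normal fed samples (-10.55 ± 0.29, limma adjusted p = 1.39e-06), and Aldh1a1, which oxidizes retinaldehyde, at 10.2 and 14.1 TPM in E18 and 1295 and 1118 TPM in normal fed samples (-6.53 ± 0.24, limma adjusted p = 1.74e-06). The 4 that rose were Abcc4, Gadd45b, Cyp2b9 and Cyp2b13. With median-ratio scaling, and without normal fed sample 0, either DDC fed sample or E18 sample 0, 2 were called higher. Of 16 hepatocyte markers tested, 12 were also called lower and 2 higher in E18 than in normal fed samples. Of the 12, Ahsg and Fgb are listed at 0 in both E18 samples, and the 2 called higher, Apoa1 and Serpina1a, are listed at 0 in both normal fed samples, so these 4 calls may rest on failed estimates. The part of the hepatocyte markers in the count of the xenobiotic list was not tested.

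The bile acid and oxysterol receptors held the largest share of the receptor sum in both DDC fed samples, in normal fed sample 0 and, narrowly, in E18 sample 0. Nr1h4 (FXR), the bile acid sensor, was at 94.0 and 112 TPM in DDC fed, 41.6 and 27.3 TPM in E18 and 114 and 101 TPM in normal fed samples. Nr0b2 (SHP), a receptor without a DNA-binding domain that FXR induces and that represses bile acid synthesis, was at 43.9 and 42.0 TPM in DDC fed, 2.41 and 2.38 TPM in E18 and 63.1 and 42.2 TPM in normal fed samples. For both genes the E18 samples were below every adult sample, and DDC fed and normal fed samples overlapped. E18 samples fell by 1.64 ± 0.25 for Nr1h4 (limma adjusted p = 0.000965) and by 3.95 ± 0.24 for Nr0b2 (limma adjusted p = 9.51e-06), both in all 16 settings. Nr0b2 stood at 0.467 and 0.376 of the level of Nr1h4 in DDC fed samples, 0.0579 and 0.0873 in E18 samples and 0.556 and 0.419 in normal fed samples. In DDC fed against normal fed samples Nr1h4 differed by -0.062 ± 0.25 and Nr0b2 by -0.26 ± 0.24 (limma adjusted p = 0.878 and 0.423). With median-ratio scaling Nr0b2 was called lower, at -0.92 (limma adjusted p = 0.00601).

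The oxysterol receptors Nr1h3 (LXR alpha) and Nr1h2 (LXR beta), which drive cholesterol export and fat synthesis, moved in opposite directions between E18 and normal fed samples. Nr1h3 was at 81.2 and 95.0 TPM in DDC fed, 21.5 and 20.1 TPM in E18 and 86.5 and 105 TPM in normal fed samples, and E18 samples fell by 2.15 ± 0.20 (limma adjusted p = 8.25e-05) in all 16 settings. Nr1h2 was at 38.2 and 39.2 TPM in DDC fed, 60.8 and 62.9 TPM in E18 and 25.4 and 21.5 TPM in normal fed samples, and no group overlapped another. The rise of Nr1h2 in E18 was 1.37 ± 0.19 (limma adjusted p = 0.000516) but 0.19 with median-ratio scaling (limma adjusted p = 0.292). Its rise in DDC fed samples was 0.70 ± 0.19 (limma adjusted p = 0.0251), a call made in 10 of the 16 settings. Among others, it was lost with median-ratio scaling (0.053) and without either DDC fed or either E18 sample. The ratio of Nr1h2 to Nr1h3 within a sample, which no scaling of a whole sample alters, was 0.470 and 0.413 in DDC fed, 2.82 and 3.13 in E18, and 0.294 and 0.204 in normal fed samples.

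Nr5a2 (LRH-1), which supports bile acid synthesis and which SHP restrains, was at 32.8 and 34.1 TPM in DDC fed, 20.1 and 12.1 TPM in E18 and 20.7 and 13.6 TPM in normal fed samples. Both DDC fed values were above all others, and E18 and normal fed samples overlapped. Its difference in DDC fed against normal fed samples was 0.95 ± 0.30 (limma adjusted p = 0.0476). It was called in 9 of the 16 settings. Among others, it did not pass without either DDC fed sample, without normal fed sample 1 or with median-ratio scaling (0.31, limma adjusted p = 0.358). In E18 samples Nr5a2 differed from normal fed samples by -0.098 ± 0.30 (limma adjusted p = 0.78), and by -1.23 with median-ratio scaling, where it was called (limma adjusted p = 0.00432). Against E18 samples DDC fed samples were higher by 1.05 ± 0.30 (limma adjusted p = 0.0201), a call made in 12 of the 16 settings. Among others, it did not pass without either DDC fed sample or without E18 sample 1.

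Of 20 listed FXR targets, which include Nr0b2 itself, 19 were tested, and 6 rose and 3 fell in DDC fed against normal fed samples. The share that rose was near the 34.2% of all genes called higher, while 3.07% of all genes were called lower, and the median was 0.21 over the list and 0.45 over all genes. The bile acid exporter subunit Slc51b rose by 4.11 ± 0.27 (46.5 and 50.2 TPM in DDC fed, 1.52 and 2.24 TPM in normal fed samples, limma adjusted p = 0.00012). Cyp8b1, which makes cholic acid, was at 6.24 and 7.70 TPM in DDC fed, 85.5 and 62.7 TPM in E18 and 202 and 173 TPM in normal fed samples. It fell by 4.57 ± 0.23 in DDC fed samples (limma adjusted p = 4.8e-05), while Nr1h4 and Nr0b2 were not called. The other falls were those of the uptake transporters Slco1a1 (-3.83) and Slc10a1 (-1.47). Since the list includes a gene of bile acid synthesis, which Nr0b2 represses, the counts of rises and falls give no direction of FXR activity. With median-ratio scaling 4 were higher and 6 lower, and without normal fed sample 1, 5 were lower. In E18 samples 2 rose and 9 fell (63.0% and 12.7% of all genes, with medians of -1.08 over the list and 1.06 over all genes), among them Slco1a1 (-7.17) and Baat (-5.44), which joins bile acids to taurine or glycine. The 2 that rose were Pltp and Klb, and 1 was higher with median-ratio scaling and without normal fed sample 1, either DDC fed sample or E18 sample 0, with 15 lower under that scaling.

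Of 17 listed LXR targets, which include Nr1h3 itself, 9 rose and 0 fell in DDC fed against normal fed samples (10 had an unadjusted p under 0.05), where 34.2% and 3.07% of all genes were called. Their median was 1.29, against 0.45 over all genes. Lpl, the lipase of lipoproteins, was at 137 and 149.8 TPM in DDC fed, 426 and 239 TPM in E18 and 1.10 and 0.416 TPM in normal fed samples, and the sterol exporter Abcg1 at 7.43 and 7.65 TPM in DDC fed, 18.2 and 25.8 TPM in E18 and 0.794 and 0.235 TPM in normal fed samples. The count was 5 with median-ratio scaling and without either DDC fed sample. In E18 samples 7 rose and 4 fell, where 63.0% of all genes were called higher and 12.7% lower, and the medians were 1.04 over the list and 1.06 over all genes. The 4 that fell were Nr1h3, the biliary sterol exporter subunits Abcg5 (-4.50) and Abcg8 (-3.62), and the desaturase Scd1 (-2.81). Apoe was called higher but is listed at 0 in all 4 adult samples, and 11 rose without normal fed sample 0. Macrophages also express Lpl and Abcg1, and the macrophage markers given above moved with them, and their part was not tested.

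The fatty acid receptors are the 3 PPARs and Hnf4g. Ppara, the receptor for fatty acid oxidation in hepatocytes, was at 48.5 and 30.3 TPM in DDC fed, 68.5 and 43.7 TPM in E18 and 57.1 and 25.4 TPM in normal fed samples. All 3 groups overlapped, and its differences from normal fed samples were 0.009 ± 0.44 in DDC fed and 0.51 ± 0.44 in E18 samples (limma adjusted p = 1 and 0.319). Its spread was wide in every group, with the higher value in sample 0 each time.

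Pparg, the receptor for fat storage, which adipocytes and macrophages express most, lies on chromosome 6 (115360951 to 115490399, plus strand, GRCm38). It was at 21.3 and 18.2 TPM in DDC fed, 6.68 and 6.15 TPM in E18 and 1.97 and 0.632 TPM in normal fed samples. No group overlapped another. The rise was 3.23 ± 0.30 in DDC fed samples (limma adjusted p = 0.000419) and 1.75 ± 0.30 in E18 samples (limma adjusted p = 0.00169), and DDC fed samples were above E18 samples by 1.48 ± 0.30 (limma adjusted p = 0.00486). The 3 calls held in all 16 settings. Pparg was at 0.438 and 0.598 of the level of Ppara in DDC fed, 0.0974 and 0.141 in E18, and 0.0345 and 0.0249 in normal fed samples. Macrophage markers, with 1358 and 1675 TPM in DDC fed, 4037 and 5170 TPM in E18 and 192 and 155 TPM in normal fed samples, were also higher in both groups than in normal fed samples, but their order between DDC fed and E18 samples was the other way round. Their part in the level of Pparg was not tested.

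Ppard, a fatty acid receptor found in most tissues, was at 5.15 and 7.49 TPM in DDC fed, 12.9 and 14.7 TPM in E18 and 4.79 and 2.97 TPM in normal fed samples. E18 samples rose by 1.62 ± 0.27 against normal fed samples (limma adjusted p = 0.00141), and the difference of 0.59 ± 0.27 in DDC fed samples did not pass (limma adjusted p = 0.131). Hnf4g, a relative of Hnf4a best known from the gut, was at 0.0413 and 0.0382 TPM in DDC fed, 2.34 and 0.317 TPM in E18 samples and 0.0153 TPM in normal fed sample 0. It is listed at 0 in normal fed sample 1 and was not tested.

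Of 37 listed PPAR targets 36 were tested, and 10 rose and 5 fell in DDC fed against normal fed samples. The share that rose was below the 34.2% of all genes called higher and the share that fell above the 3.07% called lower, with medians of 0.24 over the list and 0.45 over all genes. The fatty acid transporter Cd36 was at 184 and 165 TPM in DDC fed, 52.5 and 49.0 TPM in E18 and 1.96 and 1.46 TPM in normal fed samples (6.02 ± 0.20 in DDC fed, limma adjusted p = 8.94e-06). The lipid carrier Fabp4 was at 13.02 and 15.6 TPM in DDC fed, 108 and 157 TPM in E18 and 1.80 and 0.485 TPM in normal fed samples (2.90 ± 0.35 in DDC fed, limma adjusted p = 0.00106). The 5 that fell were Fabp1, Acot1, Mgll, Cyp4a12a and Pex11a, with differences between -3.07 and -0.78. With median-ratio scaling 7 were higher and 10 lower, without normal fed sample 0 the counts were 16 and 7, and without DDC fed sample 1 they were 7 and 3. In E18 samples 9 rose and 19 fell, against 63.0% and 12.7% of all genes and with medians of -0.74 over the list and 1.06 over all genes, led by a rise of Cd36 (4.26) and falls of the peroxisomal genes Acaa1b (-4.76) and Pex11a (-3.17). Cd36 and Fabp4 are also expressed by macrophages and endothelial cells, whose summed markers were higher in DDC fed and E18 than in normal fed samples. Between DDC fed and E18 samples these sums were higher in E18, as Fabp4 was, while Cd36 was higher in DDC fed. The part of these cells was not tested.

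The retinoid receptors comprise the RXRs, the shared partners of most receptors above, and the retinoic acid receptors (RARs). Rxra was at 150.2 and 136 TPM in DDC fed, 66.3 and 55.5 TPM in E18 and 152 and 74.9 TPM in normal fed samples. Both E18 values were below all adult values, and the normal fed values were far apart. The differences from normal fed samples did not pass (0.42 ± 0.34 in DDC fed and -0.81 ± 0.34 in E18, limma adjusted p = 0.369 and 0.0653). With median-ratio scaling E18 samples were lower, at -1.99 (limma adjusted p = 0.000531). Rxrb was at 31.7 and 30.9 TPM in DDC fed, 44.2 and 46.8 TPM in E18 and 30.6 and 22.6 TPM in normal fed samples. Its rise of 0.77 ± 0.21 in E18 samples (limma adjusted p = 0.0136) turned to -0.40 with median-ratio scaling (limma adjusted p = 0.0441), and it did not pass without either E18 sample.

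Rxrg, found mainly in muscle and nerve tissue in mice, was low in liver samples and nearly absent from E18: 4.23 and 5.71 TPM in DDC fed, 0.0710 and 0.0653 TPM in E18 and 2.78 and 2.21 TPM in normal fed samples. No group overlapped another. E18 samples fell by 1.70 ± 0.17 against normal fed samples (limma adjusted p = 0.000127), in all 15 settings in which it could be fitted. DDC fed samples rose by 0.77 ± 0.17 (limma adjusted p = 0.0149), a call made in 10 of these 15 settings. Among others, it did not pass without DDC fed sample 1 or normal fed sample 1, or with median-ratio scaling (0.26, limma adjusted p = 0.243). Rxra held 80.7% and 78.8% of the summed RXR level in DDC fed, 60.0% and 54.2% in E18, and 82.0% and 75.1% in normal fed samples. The sum itself was 186 and 172 TPM in DDC fed, 111 and 102 TPM in E18, and 185 and 99.8 TPM in normal fed samples. The 14 receptors here that pair with RXR stood at 2.83 and 3.30 times that sum in DDC fed, 2.78 and 2.58 times in E18, and 2.89 and 5.79 times in normal fed samples, where sample 1 stood apart from all others.

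Among the RARs, Rara, found in most tissues, was at 15.3 and 16.6 TPM in DDC fed, 8.95 and 10.7 TPM in E18 and 9.40 and 8.88 TPM in normal fed samples. DDC fed values were the highest. The rise of 0.74 ± 0.20 against normal fed samples (limma adjusted p = 0.0262) was called in 9 of the 16 settings. Among others, it shrank to 0.12 with median-ratio scaling (limma adjusted p = 0.665) and did not pass without either DDC fed or either E18 sample. In E18 samples Rara differed by 0.092 ± 0.20 (limma adjusted p = 0.685) and by -0.997 with median-ratio scaling (limma adjusted p = 0.00362).

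Rarg, the RAR of skin and cartilage, was at 5.88 and 7.74 TPM in DDC fed, 11.7 and 12.3 TPM in E18 and 0.802 and 0.149 TPM in normal fed samples. Rarb, which retinoic acid itself induces and which stellate cells express, was at 3.37 and 4.69 TPM in DDC fed, 4.84 and 3.999 TPM in E18 and 0.971 and 0.350 TPM in normal fed samples. For both genes every DDC fed and E18 value was above both normal fed values. Rarg rose by 2.43 ± 0.26 in DDC fed and 3.18 ± 0.26 in E18 samples (limma adjusted p = 0.00069 and 4.33e-05). Rarb rose by 1.61 ± 0.24 in DDC fed and 1.73 ± 0.24 in E18 samples (limma adjusted p = 0.00265 and 0.000585). These calls held in all 16 settings for Rarg and in the 15 in which Rarb could be fitted. Rarg was below Rara in every adult sample, at 0.384 and 0.467 of its level in DDC fed and 0.0853 and 0.0168 in normal fed samples, and above it in E18, at 1.31 and 1.14 times. Stellate and fibroblast markers stood at 537 and 487 TPM in DDC fed, 761 and 736 TPM in E18 and 37.4 and 16.4 TPM in normal fed samples, in the same order as Rarg. The sums of macrophage, endothelial and neutrophil markers given above ran in that order as well. The part of these cells was not tested. Exons of Top2b on the opposite strand, a gene with up to 70.8 TPM, cover 34.1% of the exon bases of Rarb, so its values are uncertain.

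Of 23 listed genes of retinoid handling 18 were tested, and 7 rose and 0 fell in DDC fed against normal fed samples (11 had an unadjusted p under 0.05). The share that rose was near the 34.2% of all genes called higher (3.07% were called lower), and the median was 0.71 over the list and 0.45 over all genes. Lrat, which stores retinol as esters in stellate cells and is itself among the stellate markers, was at 6.22 and 4.98 TPM in DDC fed, 4.40 and 4.08 TPM in E18 and 0.672 and 0.214 TPM in normal fed samples. Dhrs9, a retinol dehydrogenase, rose by 2.91 ± 0.17 and Bco1, which splits carotene, by 2.56 ± 0.25 (limma adjusted p = 9.5e-05 and 0.000468). With median-ratio scaling 6 were higher and 2 lower, and 11 were higher without normal fed sample 0. In E18 samples 8 rose and 10 fell, where 63.0% of all genes were called higher and 12.7% lower and the medians were -0.84 over the list and 1.06 over all genes. Those that fell were led by the oxidizing enzymes Aldh1a1 (-6.53), Adh4 (-5.61) and Rdh16 (-4.58), and 3 were higher with median-ratio scaling and 5 without E18 sample 0.

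**Figure D3:**
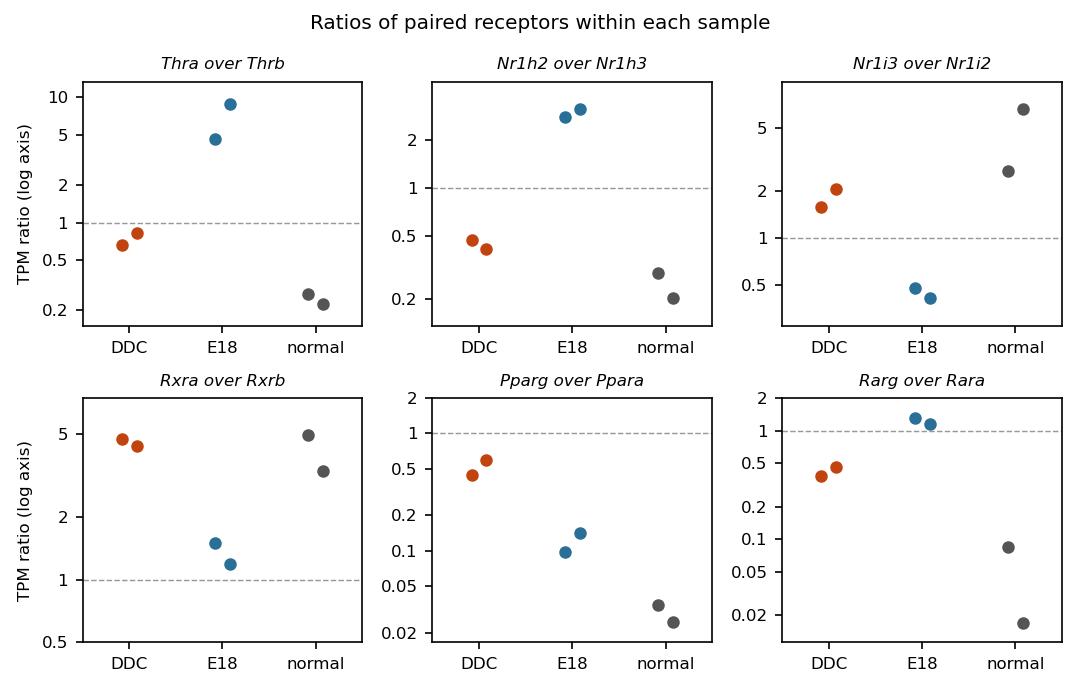
Ratio of the TPM of paired receptors within each sample, on log axes, 1 point per sample, for DDC fed, E18 and normal fed samples. A ratio of 1 is dashed: Thra over Thrb and Nr1h2 over Nr1h3 lie above it in both E18 samples and below it in all 4 adult samples, and Nr1i3 over Nr1i2 the other way round.

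The thyroid hormone receptors exchanged rank between E18 and adult samples. Thra, the form of heart and brain, was at 6.58 and 7.50 TPM in DDC fed, 33.0 and 37.7 TPM in E18 and 4.25 and 2.18 TPM in normal fed samples. Thrb, the main form of adult liver, was at 9.88 and 9.13 TPM in DDC fed, 7.12 and 4.23 TPM in E18 and 15.7 and 9.70 TPM in normal fed samples. Thra was 0.666 and 0.822 times Thrb in DDC fed samples, 4.63 and 8.91 times in E18 samples and 0.271 and 0.225 times in normal fed samples, with no overlap between groups. In E18 samples Thra rose by 3.15 ± 0.28 in all 16 settings (limma adjusted p = 5.97e-05). Thrb fell by 1.04 ± 0.31 (limma adjusted p = 0.019), which did not pass without E18 sample 1 or normal fed sample 0 (limma adjusted p = 0.14 and 0.0532). In DDC fed samples Thra rose by 0.97 ± 0.28 (limma adjusted p = 0.0333), a call made in 9 of the 16 settings. Among others, it did not pass with median-ratio scaling (0.45, limma adjusted p = 0.142) or without either DDC fed or either E18 sample. Thrb differed by -0.35 ± 0.31 in DDC fed samples (limma adjusted p = 0.409) and by -0.97 with median-ratio scaling, where it was called (limma adjusted p = 0.0248). Vdr was at 0.0728 and 0.122 TPM in DDC fed and 0.687 and 0.394 TPM in E18 samples and is listed at 0 in both normal fed samples.

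Of 13 listed thyroid hormone targets, which include Thra itself, 4 rose and 2 fell in DDC fed against normal fed samples. The share that rose was near the 34.2% of all genes called higher, 3.07% of all genes were called lower, and the medians were 0.52 over the list and 0.45 over all genes. Dio1, the deiodinase that makes active hormone, was at 26.4 and 14.004 TPM in DDC fed, 0.329 and 0.0313 TPM in E18 and 282 and 248 TPM in normal fed samples, and Thrsp, a gene of fat synthesis, at 287 and 249 TPM in DDC fed, 6.78 and 6.99 TPM in E18 and 2576 and 1388 TPM in normal fed samples. They fell by 3.71 ± 0.32 and 2.82 ± 0.31 in DDC fed samples (limma adjusted p = 0.000308 and 0.000759), while Hr, Pdk4, Bcl3 and Thra rose. Without normal fed sample 0, 7 rose, and without either DDC fed sample 2 did. In E18 samples 4 rose (Thra, Pdk4, Idh3a and Hr) and 3 fell (Thrsp, Dio1 and Me1), where 63.0% and 12.7% of all genes were called and the medians were -0.15 over the list and 1.06 over all genes. The counts were 2 and 8 with median-ratio scaling and 3 and 8 without normal fed sample 1.

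Of the steroid receptors, Nr3c1 (the glucocorticoid receptor) was at 25.1 and 24.1 TPM in DDC fed, 49.7 and 47.5 TPM in E18 and 36.6 and 12.8 TPM in normal fed samples. The normal fed values lie on both sides of the DDC fed values. Its rise of 1.12 ± 0.43 in E18 samples was at the threshold (limma adjusted p = 0.0496) and was called in only 6 of the 16 settings. Among others, it did not pass without either E18 or either DDC fed sample, and was -0.039 with median-ratio scaling (limma adjusted p = 0.927). It differed in DDC fed samples by 0.17 ± 0.43 (limma adjusted p = 0.791), by 0.90 without normal fed sample 0 and by -0.55 without normal fed sample 1, so its direction there rests on single normal fed samples. Nr3c2 (the mineralocorticoid receptor) was at 4.06 and 4.23 TPM in DDC fed, 1.15 and 0.559 TPM in E18 and 3.99 and 2.001 TPM in normal fed samples. It fell by 1.08 ± 0.28 in E18 samples (limma adjusted p = 0.0102), a call that did not pass without E18 sample 1.

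Esr1, the estrogen receptor of hepatocytes, was at 10.2 and 8.47 TPM in DDC fed, 1.41 and 0.669 TPM in E18 and 16.9 and 10.4 TPM in normal fed samples. Both E18 values were below every adult value, with a fall of 2.83 ± 0.30 (limma adjusted p = 0.000145) in all 16 settings. In DDC fed samples both values were below both normal fed values, at -0.47 ± 0.30 (limma adjusted p = 0.255), and the difference was called with median-ratio scaling (-1.10, limma adjusted p = 0.0126).

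Of 20 listed glucocorticoid targets 9 rose and 1, the tryptophan oxygenase Tdo2 (-0.97), fell in DDC fed against normal fed samples, where 34.2% of all genes were called higher and 3.07% lower. The medians were 0.57 over the list and 0.45 over all genes. Lcn2, an acute phase protein, was at 4173 and 3342 TPM in DDC fed, 1509.9 and 1906 TPM in E18 and 8.48 and 5.23 TPM in normal fed samples (8.93 ± 0.29 in DDC fed, limma adjusted p = 8.94e-06), and the cell cycle inhibitor Cdkn1a rose by 4.59 ± 0.20 (limma adjusted p = 2.71e-05). With median-ratio scaling 6 were higher and 4 lower, and the count called lower was 3 without normal fed sample 0, 2 without normal fed sample 1, 0 without either DDC fed sample and 2 without either E18 sample. In E18 samples 9 rose, with Lcn2 at 7.79, and 7 fell, among them Tdo2 (-9.06), Tat (-6.99) and Sds (-5.76), enzymes that break down amino acids. Over all genes 63.0% were called higher and 12.7% lower, and the medians were 0.59 over the list and 1.06 over all genes. Other hormones and cytokines also control most of these genes.

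The estrogen-related receptors, which have no known natural hormone, control mitochondrial genes. Esrra was at 25.2 and 31.2 TPM in DDC fed, 21.8 and 18.8 TPM in E18 and 30.0 and 24.5 TPM in normal fed samples. It was not called against normal fed samples (0.046 ± 0.22 in DDC fed and -0.41 ± 0.22 in E18, limma adjusted p = 0.899 and 0.127), and with median-ratio scaling it was lower in both (-0.61 and -1.56, limma adjusted p = 0.0394 and 0.000331). Esrrg was at 0.0919 and 0.0691 TPM in DDC fed, 1.40 and 1.60 TPM in E18 and 3.49 and 0.640 TPM in normal fed samples. Both DDC fed values were below all others, and the normal fed samples differed widely from each other. The fall of 1.33 ± 0.41 in DDC fed samples (limma adjusted p = 0.0439) was called in 8 of the 15 settings in which it could be fitted. Among others, it did not pass without either DDC fed or either E18 sample. In E18 samples Esrrg differed by -0.12 ± 0.41 (limma adjusted p = 0.803), by 0.61 without normal fed sample 0 and by -0.85 without normal fed sample 1.

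The orphan receptors of the NR2, NR6 and ROR groups are mostly repressors or act without a known ligand. Nr2f6, a repressor of the COUP family, was at 86.5 and 95.0 TPM in DDC fed, 38.9 and 29.1 TPM in E18 and 83.6 and 58.7 TPM in normal fed samples. It fell by 1.04 ± 0.25 in E18 samples (limma adjusted p = 0.00808), which did not pass without E18 sample 1, and exons of Ocel1 on the opposite strand cover 54.4% of its exon bases. Nr2c2 (TR4) was at 5.996 and 4.24 TPM in DDC fed, 19.8 and 20.1 TPM in E18 and 3.77 and 2.53 TPM in normal fed samples. Both E18 values were above every adult value, and the rise of 2.35 ± 0.24 (limma adjusted p = 0.000136) held in all 16 settings. Exons of Mrps25 on the opposite strand cover 30.7% of the exon bases of Nr2c2, with up to 29.5 TPM, so both values are uncertain. Its paralog Nr2c1 (TR2) was at 6.92 and 5.09 TPM in DDC fed, 8.80 and 7.36 TPM in E18 and 7.45 and 3.34 TPM in normal fed samples and was not called. Nr2c2 was 0.866 and 0.834 times Nr2c1 in DDC fed, 2.25 and 2.72 times in E18, and 0.506 and 0.759 times in normal fed samples.

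Nr2f2 (COUP-TFII), expressed by veins and mesenchyme as well as hepatocytes, was at 12.7 and 13.03 TPM in DDC fed, 14.1 and 14.3 TPM in E18 and 11.4 and 6.49 TPM in normal fed samples, and Rora, a receptor of the circadian clock, at 13.002 and 14.1 TPM in DDC fed, 13.1 and 7.90 TPM in E18 and 13.6 and 5.77 TPM in normal fed samples. Neither was called against normal fed samples (limma adjusted p = 0.174 and 0.32 in DDC fed, 0.0618 and 0.708 in E18). With median-ratio scaling Rora was lower in E18 samples (-0.91, limma adjusted p = 0.0419). Nr2f1 (COUP-TFI) was at 0.335 and 0.315 TPM in DDC fed, 1.41 and 1.23 TPM in E18 and 0.166 and 0.00890 TPM in normal fed samples and rose by 1.10 ± 0.11 in E18 samples (limma adjusted p = 0.000116). Nr2f1 was under 1 TPM in every adult sample and passed the filter through the E18 samples alone, so it was not tested without either of them. Nr6a1 (GCNF), a germ cell and embryonic repressor, was at 3.13 and 3.88 TPM in DDC fed, 2.41 and 1.44 TPM in E18 and 2.08 and 1.58 TPM in normal fed samples. Its rise of 0.67 ± 0.22 in DDC fed samples (limma adjusted p = 0.0492) was called in only 4 of the 15 settings in which it could be fitted. Among others, it did not pass without any of the samples other than normal fed sample 0, nor with median-ratio scaling (0.20, limma adjusted p = 0.425). In E18 samples it differed by 0.030 ± 0.22 (limma adjusted p = 0.906), and by -0.75 with median-ratio scaling (limma adjusted p = 0.0105).

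The NR4A receptors, whose upstream sequences are printed above, were low in normal fed samples and rose together in E18 samples. Nr4a1 (chromosome 15, 101254269 to 101274795, plus strand, GRCm38), whose GENCODE gene begins upstream of the RefSeq start used for its window, was at 7.89 and 18.1 TPM in DDC fed, 122 and 110.3 TPM in E18 and 2.36 and 3.29 TPM in normal fed samples. Nr4a2 was at 0.340 and 0.293 TPM in DDC fed, 18.5 and 12.7 TPM in E18 and 0.0221 and 0.0672 TPM in normal fed samples. The GENCODE gene of Nr4a3 (chromosome 4, 48045153 to 48086447, plus strand) also begins upstream of the RefSeq start, inside the window printed for it. Nr4a3 was at 0.198 and 0.186 TPM in DDC fed and 5.14 and 2.70 TPM in E18 samples, and in normal fed samples it is listed at 0 in sample 0 and was at 0.0164 TPM in sample 1. For all 3 genes both E18 values were above every adult value, and both DDC fed values were above both normal fed values. The rise in E18 against normal fed samples was 4.95 ± 0.37 for Nr4a1 and 3.97 ± 0.19 for Nr4a2 (limma adjusted p = 2.56e-05 and 4.02e-06). Nr4a3 also passed in E18 samples (limma adjusted p = 0.00011), with no fold given because of the 0. The call of Nr4a1 held in all 16 settings. Nr4a2 and Nr4a3 were under 1 TPM in every adult sample and passed the filter through the E18 samples alone. They could not be fitted without either E18 sample, so their calls were not tried there. They were called in the 14 and 13 settings in which they could be fitted. In DDC fed samples Nr4a1 rose by 1.78 ± 0.37 (limma adjusted p = 0.00992), and by 1.24 with median-ratio scaling, which did not pass (limma adjusted p = 0.0575). Nr4a2 and Nr4a3 did not pass in DDC fed samples (limma adjusted p = 0.215 and 0.429). DDC fed samples were also lower than E18 samples, with differences of -3.17 ± 0.37 for Nr4a1 and -3.63 ± 0.19 for Nr4a2 (limma adjusted p = 0.00034 and 1.03e-05).

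Other immediate early and isolation stress genes were raised in the same samples. Of 24 tested, 22 were called higher in E18 and 18 in DDC fed than in normal fed samples, and 0 lower in either (22 and 21 had an unadjusted p under 0.05), where 63.0% of all genes were called higher in E18 and 34.2% in DDC fed samples. The medians were 3.41 in E18 and 2.17 in DDC fed samples, against 1.06 and 0.45 over all genes. Egr2 was at 1.41 and 2.67 TPM in DDC fed, 16.8 and 16.4 TPM in E18 and 0.149 and 0.0436 TPM in normal fed samples, and Klf6 at 76.1 and 121 TPM in DDC fed, 103 and 85.8 TPM in E18 and 1.73 and 0.764 TPM in normal fed samples. With DDC fed sample 1 left out 11 were called higher in DDC fed samples, and with median-ratio scaling 16 were higher and 1 lower in E18 samples. The summed level of this list was 2528 and 4018 TPM in DDC fed samples, where sample 1 also had the higher Nr4a1. In E18 samples it was 5598 and 4239 TPM, and sample 0 also had the higher Nr4a1 (122 and 110.3 TPM). In normal fed samples the order was opposite, with sums of 1127 and 583 TPM and Nr4a1 at 2.36 and 3.29 TPM. The part of isolation stress in the NR4A values was not tested.

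**Figure D4:**
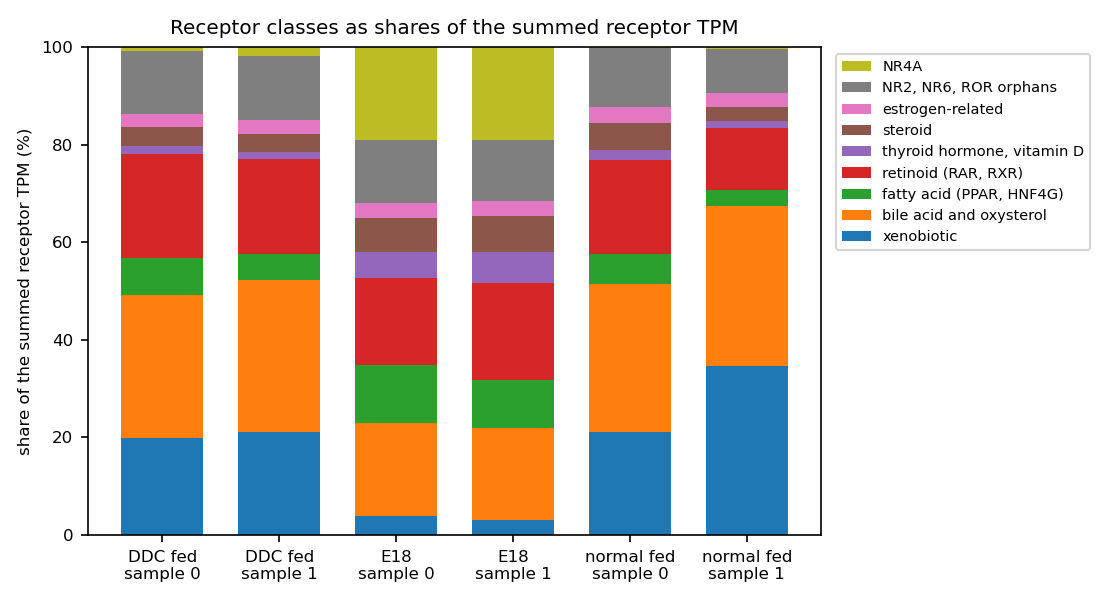
Share of each receptor class in the summed TPM of the 35 receptors (%), 1 bar per sample, in the order DDC fed, E18, normal fed. NR4A receptors made up 19.1% of the sum in each E18 sample, against 0.850% and 1.79% in DDC fed and 0.234% and 0.390% in normal fed samples, and xenobiotic receptors held a smaller share in E18 than in every adult sample.

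As shares of the receptor sum, the xenobiotic receptors held 19.9% and 21.2% in DDC fed, 3.85% and 3.01% in E18, and 21.1% and 34.6% in normal fed samples. Bile acid and oxysterol receptors held 29.3% and 31.0% in DDC fed, 19.2% and 19.0% in E18, and 30.3% and 32.8% in normal fed samples. Both classes were lower in E18 than in every adult sample. The NR4A receptors held 19.1% in each E18 sample and less than 2% in each adult sample. Thyroid hormone receptors and Vdr held 1.67% and 1.61% in DDC fed, 5.34% and 6.44% in E18, and 1.95% and 1.37% in normal fed samples. Retinoid receptors held 21.2% and 19.4% in DDC fed, 17.8% and 19.7% in E18, and 19.3% and 12.6% in normal fed samples. Both DDC fed shares were above both normal fed shares, 1 of them narrowly, and the E18 shares overlapped those of both other groups. These shares do not depend on how a whole sample is scaled, since each is taken within 1 sample.

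Coactivators and corepressors, which carry out what a bound receptor directs, were called more often in E18 than in DDC fed samples, though the difference between these counts was not tested. Of 20 listed, 18 rose and 0 fell in E18 against normal fed samples (18 had an unadjusted p under 0.05), where 63.0% of all genes were called higher and 12.7% lower. The median was 1.60 over the list and 1.06 over all genes. With median-ratio scaling 6 were higher and 2 lower. Gps2, a corepressor subunit, was at 23.0 and 26.3 TPM in DDC fed, 60.8 and 78.0 TPM in E18 and 16.7 and 15.1 TPM in normal fed samples (2.05 ± 0.21 in E18, limma adjusted p = 0.000124), and Ncoa7 at 0.702 and 0.736 TPM in DDC fed, 7.96 and 10.1 TPM in E18 and 0.0719 and 0.0159 TPM in normal fed samples. In DDC fed samples Hdac3, the histone deacetylase of the corepressor complex, rose by 0.91 ± 0.18 and Ncoa7 by 0.72 ± 0.15 (limma adjusted p = 0.00777 and 0.0113), and 0 fell (5 of the 20 had an unadjusted p under 0.05), where 34.2% of all genes were called higher and 3.07% lower and the medians were 0.54 over the list and 0.45 over all genes. The count of 2 was 19 without normal fed sample 0, 3 without normal fed sample 1 (with 1 lower), 0 without either DDC fed sample, and 1 without either E18 sample or with median-ratio scaling.

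Genes that make, clear or carry receptor ligands fell more often than they rose in both comparisons. Of 20 listed 14 were tested, and 1 rose and 6 fell in DDC fed against normal fed samples, where 34.2% of all genes were called higher and 3.07% lower. In E18 against normal fed samples 1 rose and 11 fell, where 63.0% and 12.7% of all genes were called. The medians were -0.46 in DDC fed and -2.62 in E18 samples, against 0.45 and 1.06 over all genes. Of the 20, 6 are listed at 0 in both samples of some group, and Gc, the carrier of vitamin D, in both DDC fed samples. Cyp7b1, which clears oxysterols, was at 41.4 and 40.2 TPM in DDC fed, 0.888 and 0.566 TPM in E18 and 787 and 412 TPM in normal fed samples (-3.77 ± 0.32 in DDC fed and -8.37 ± 0.32 in E18, limma adjusted p = 0.000294 and 1.89e-06). Hsd11b1, which makes active glucocorticoid, was at 684 and 689 TPM in DDC fed, 137 and 111 TPM in E18 and 1138 and 1148 TPM in normal fed samples. Fabp1, which carries fatty acids into the cell, was at 2963 and 2997 TPM in DDC fed, 2100.3 and 1337 TPM in E18 and 21726 and 28962 TPM in normal fed samples. The genes that rose were Sult1e1, which inactivates estrogen, in DDC fed samples (3.73) and Dio2 in E18 samples, which is listed at 0 in both normal fed samples. The count of rises was 3 in DDC fed samples without normal fed sample 0 and 0 without either DDC fed sample, and 0 in E18 samples without either E18 sample.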

How the data were processed

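Hepatocyte RNA of 6 samples was measured, 2 in each of 3 groups. The authors deposited TPM values for 48432 genes and 6 samples in a single table, in which each gene's abundance is scaled to a fixed sum per sample. Per the submitters' processing notes, reads were handled with STAR 2.4.2a, Trimmomatic, Picard 1.119, bcl2fastq 2.17.1.14, Cuffdiff 2.2.1, HTSeq and DESeq2 on GRCm38 (mm10), without the role of each tool. The tool that made the TPM values, the annotation and the use of strand are not stated there. TPM depends on all other genes of a sample, so a few very abundant genes move every other value, and depth and counting error are unknown. Columns are numbered 0 and 1 but titles 1 and 2, so a column is known by its group only.

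Receptors were found by gene identifier in GENCODE M21 (GRCm38), where 48053 identifiers of the table matched. The filter was a level of 1 TPM or more in any 2 of the 6 samples, which 14307 genes passed. They were tested on log2(TPM + 1) with limma 3.58.1 in R 4.3.3, with 1 mean per group over all 6 samples, 3 residual degrees of freedom and variances moderated along the mean level. Two-sided p-values were corrected over all tested genes (Benjamini-Hochberg) at a threshold of 0.05. DDC fed and E18 samples were each compared with normal fed samples, and DDC fed with E18 samples. The fit was tested on simulated data.

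The members and lists were chosen with earlier results of these data known. Receptors with a group mean of at least 5 TPM or past the threshold are given with every value, and in each other list the members of smallest adjusted p are named, 4 at most, with exceptions said beside them. A gene that this rule would name is not reported here. The other settings were pseudocounts of 0.1 and 5, a filter on the mean (5 TPM) or none, median-ratio scaling, TPM rescaled without the 50 highest and the erythroid genes, a correction for exon length, the replicate number as a block, a fit of the compared groups alone, and leaving out each sample in turn. A sample left alone in its group was taken to vary as the remaining groups do. Promoter windows were read from RefSeq (GRCm38.p6). Python 3.11.15, pandas 2.3.3, matplotlib 3.10.9 and version 1.17.8 of data.table were also used.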

Additional observations from a re-analysis of the deposited data

How the results depend on the processing

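With 2 samples a group, no counts and a shifted median gene, small differences cannot be separated from the scaling. Receptors called higher and lower in DDC fed against normal fed samples were 10 and 1. They were 3 and 5 with median-ratio scaling, 6 and 0 with no filter, 5 and 0 with the compared groups only, 7 and 0 with a mean of at least 5 TPM and 10 and 0 with a pseudocount of 5. The filter on the mean left 26 receptors to test, and none of their calls changed. Rarb, Rxrg, Nr6a1 and Esrrg were not among them. For E18 against normal fed samples, median-ratio scaling gave 17 lower in place of 10, and for DDC fed against E18 samples 6 lower in place of 10. Over all genes, median-ratio scaling called 2933 higher and 1663 lower in DDC fed against normal fed samples (4896 and 439 otherwise), 5434 and 4553 in E18 against normal fed samples (9020 and 1815), and 3985 higher in DDC fed against E18 samples (2532). A mean of at least 5 TPM, which tests fewer genes, gave 261 lower in DDC fed against normal fed and 4299 lower in DDC fed against E18 samples (6723 otherwise).

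Leaving out 1 sample at a time gave 4 to 21 receptors higher and 0 to 3 lower in DDC fed against normal fed samples, 8 to 17 higher and 7 to 13 lower in E18 against normal fed samples, and 10 to 16 higher and 3 to 12 lower in DDC fed against E18 samples. Over all genes the ranges were 2375 to 7985 and 220 to 917, 6059 to 9891 and 1229 to 2235, and 1584 to 3277 and 3302 to 7906. In DDC fed against normal fed samples the most receptors called higher came without normal fed sample 0, and the most called lower without normal fed sample 1. Without either E18 sample, Nr2f1, Nr4a2 and Nr4a3 failed the filter and were not tested, so the counts of those fits leave them out.

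Among receptors called with or without it, median-ratio scaling turned the direction of Esrra in DDC fed against normal fed samples (-0.61) and, in E18 against normal fed samples, of Nr3c1 (-0.039), Nr6a1 (-0.75), Rara (-0.997), Rxrb (-0.40) and Rora (-0.91). Directions of receptors called in neither fit turned for 10, 3 and 4 receptors in DDC fed against normal fed, E18 against normal fed and DDC fed against E18 samples. With 1 sample left out, Esrrg in E18 against normal fed samples ranged from -0.85 to 0.61, and Nr3c1 in DDC fed against normal fed samples from -0.55 to 0.90. The cause of these changes was not tested.

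Deviations of samples with the same number from their group means correlated at 0.233 between normal fed and DDC fed samples. The correlation was 0.139 between normal fed and E18 samples and 0.061 between DDC fed and E18 samples. With 2 samples a group and no reference value, these correlations cannot show whether the numbers pair the samples. With the replicate number as a block, 10 receptors were higher and 1 lower in DDC fed against normal fed samples, 13 and 11 in E18 against normal fed samples, and 15 and 11 in DDC fed against E18 samples.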
